A study of Mus musculus with 6 samples.

Results

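The genes described here are the tenascins Tnn, Tnc, Tnxb and Tnr and the fibronectin gene Fn1, which are 5 of the 34745 genes in the expression table. They were chosen by gene symbol, with their D-gal against control values already known and with the opposite directions of Tnn and Fn1 as part of the choice. Their differences between the groups are therefore given as a description, with no test. RNA was sequenced from NOR-10 cells, an established line of mouse skeletal muscle fibroblasts. In the D-gal group the cells received D-galactose (D-gal), a sugar used to induce ageing-like changes in cultured cells, at 20 mg/mL for 3 days, and in the control group they received the same amount of PBS. Each group held 3 libraries, all from the same line with no genetic change named in the labels, and the labels do not say whether the 3 came from separate cultures, so that every p-value here measures only the spread between these libraries. Library totals lay between 16876087 and 20830349 counts in the control group and between 13759108 and 15157064 counts in the D-gal group.

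Tenascins and fibronectin are large multidomain glycoproteins that fibroblasts release into the extracellular matrix. They are built from strings of repeats, including fibronectin type III repeats, and each tenascin ends in a fibrinogen-like domain. Fibronectin is assembled into fibrils by integrins at the cell surface and gives cells a substrate to adhere to, whereas tenascin-C (Tnc) binds fibronectin and is known for weakening adhesion to it. Tenascin-W (Tnn) is known from bone, from stem cell niches and from the stroma of tumours, tenascin-X (Tnxb) from the collagen network of skin, tendon and muscle, and tenascin-R (Tnr) from the matrix around neurons.

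The coding sequences were searched for 1 motif that bears on how matrix proteins meet the cell, and for no other. The tripeptide Arg-Gly-Asp (RGD) is the short motif by which several integrins recognise matrix proteins. In the longest complete coding transcript of each gene in GENCODE M21, the tripeptide was encoded 1 time in Tnn, at residues 427 to 429 of 1560, and 2 times in Fn1, at residues 1614 to 1616 and 2181 to 2183 of 2477. It was encoded 0 times in Tnc (2110 residues), Tnxb (4006 residues) and Tnr (1358 residues). Of 21623 coding genes, 1565 (7.24%) encode it, and a match says nothing of whether the site is used. The coding stretches around these codons are shown, with the 9 bases that encode RGD in capitals. Tnn and Fn1 are also the members whose counts differed most between the groups, and a link between the motif and the counts was not tested. The stretches lie in exon 6 of Tnn, at chr1:160139265-160139315, and in exons 30 and 40 of Fn1, at chr1:71606725-71606775 and chr1:71597422-71597472, all on the minus strand of GRCm38.
Tnn, residues 427 to 429: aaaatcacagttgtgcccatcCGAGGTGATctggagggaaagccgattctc
Fn1, residues 1614 to 1616: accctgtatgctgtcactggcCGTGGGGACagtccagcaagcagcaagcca
Fn1, residues 2181 to 2183: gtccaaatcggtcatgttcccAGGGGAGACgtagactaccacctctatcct

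The label of the cells was checked against marker genes. Of 10 fibroblast markers, 9 passed the filter on low counts, and the summed level of the list, as counts scaled to a common library total (CPM), was 7698 to 7923 in the controls against 5081 to 5207 in the D-gal libraries, with 1 marker higher and 7 lower at an adjusted p under 0.05 (edgeR). Lum, the remaining one, had 1 count in all. Myogenic markers, with Pax7, Myf5 and Myod1 at 0, summed to 3.11 to 3.59 CPM in the control group and 1.87 to 2.02 CPM in the D-gal group. Des, among these markers, was lower in the D-gal group (log2 fold change -0.78, adjusted p = 0.009, edgeR). Epithelial markers, with Epcam at 0, summed to between 7.09 and 8.66 CPM in the control group and between 1.69 and 2.65 CPM in the D-gal group, where Cdh1 fell (log2 fold change -1.79, adjusted p = 0.0002, edgeR). Endothelial markers summed to 4.52 to 5.40 CPM and 3.08 to 3.38 CPM, with Tek lower. Glial and Schwann cell markers summed to 3.79 to 5.39 CPM and 5.41 to 8.13 CPM, with Mbp higher, and immune markers to 20.3 to 40.0 CPM and 36.7 to 42.8 CPM, with Cd14 higher. Tenocyte markers summed to 12.9 to 19.7 CPM and 18.3 to 21.02 CPM, with none called. Osteoblast markers, with Ibsp at 0, summed to 75.0 to 88.7 CPM and 76.2 to 84.4 CPM, mostly Runx2. Whether these differences in marker level have a part in the results on the members was not tested. These are bulk libraries, in which fewer cells of a type and less RNA per cell cannot be told apart.

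Fibronectin was the most abundant member in the control group and fell furthest in number of reads. Fn1 (ENSMUSG00000026193) occupies 67681 bp of chromosome 1, minus strand (chr1:71585520-71653200, GRCm38), with 17 annotated transcripts of which 9 are coding. Its normalized counts, scaled by TMM to a common library size, were 110115, 114773 and 111362 in the controls against 48768, 43748 and 47182 in the D-gal libraries. Every D-gal library thus held fewer Fn1 reads than every control library, with a wide gap between the groups. The means were 112083 ± 2411 and 46566 ± 2566 normalized counts (SD, n = 3), so that the control level was 2.41-fold the D-gal level, a log2 fold change of -1.27 with a standard error (SE) of 0.04. Fn1 took 0.649 to 0.675% of all counts in the controls against 0.264 to 0.293% in the D-gal libraries. On the opposite strand, the gene Apol7d overlaps exons of Fn1, but it had between 1 and 5 counts per library, and 3.89% of the 31-base words of Fn1 occur in other genes.

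Tnn moved the other way, from a very low to a moderate level. Tnn (ENSMUSG00000026725) occupies 68552 bp of chromosome 1, minus strand (chr1:160085029-160153580), and both of its annotated transcripts are coding. The deposited counts were 47, 44 and 33 in the controls against 502, 681 and 570 in the D-gal libraries. These correspond to normalized counts of 41.0, 35.9 and 33.3 against 563, 744 and 687, so the lowest D-gal library stood far above the highest control library. The means were 36.7 ± 3.88 and 665 ± 92.1 normalized counts (SD, n = 3), an 18.1-fold difference and a log2 fold change of 4.17 with an SE of 0.14. Among the 13407 genes tested, Tnn ranked 8 from the top by log2 fold change and Fn1 ranked 157 from the bottom. None of the 31-base words of the Tnn exons occurred in another annotated gene, so its reads are unlikely to be shared with a copy.

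Tnc was abundant in both groups and differed little between them. Tnc (ENSMUSG00000028364) occupies 87231 bp of chromosome 4, minus strand (chr4:63959785-64047015), with 4 coding transcripts. Its normalized counts were 33250, 34648 and 33650 in the controls against 32994, 32463 and 31900 in the D-gal libraries. The D-gal libraries lay just under the control libraries, at means of 32453 ± 547 against 33849 ± 720 (SD, n = 3), a difference of -4.13% and a log2 fold change of -0.06 with an SE of 0.03. That order depended on the scaling, because in the deposited FPKM values (fragments scaled by gene length and library total) the groups overlapped, with 247 to 257 in the controls against 243 to 250 in the D-gal libraries. An antisense gene, 8030451A03Rik, overlaps Tnc and had at most 6 counts in a library.

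Tnxb was low in all libraries. Tnxb (ENSMUSG00000033327) occupies 49281 bp of chromosome 17, plus strand (chr17:34670535-34719815), with 2 coding transcripts. Its normalized counts were 219, 181 and 187 in the controls against 219, 230 and 221 in the D-gal libraries. The groups met at their edges, as control 1 (218.72) and D-gal 1 (218.838) were nearly equal. The means were 196 ± 20.2 and 223 ± 6.25 (SD, n = 3), a log2 fold change of 0.19 with an SE of 0.10. Of the 31-base words of Tnxb, 9.76% occur in other genes, among them its partial copy Tnxa, so its counts are uncertain to that extent, although Tnxa itself had 0 counts in every library.

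Tnr was at or near the limit of detection. Tnr (ENSMUSG00000015829) occupies 407961 bp of chromosome 1, plus strand (chr1:159523769-159931729), on the same chromosome as Tnn and Fn1. It had 5, 1 and 0 counts in the controls against 1, 1 and 0 counts in the D-gal libraries. The sums of 6 and 2 counts allow no statement on a difference, and Tnr was the member that did not pass the filter on low counts. A library without a read still allows up to 3 counts, and such limits cover counting error only.

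**Figure D1:**
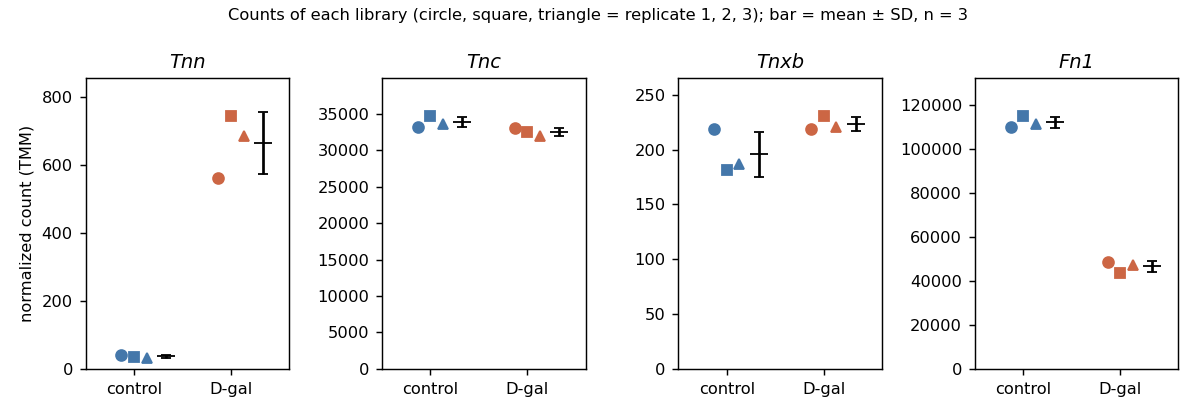
TMM-normalized counts (y axis, starting at 0 and scaled separately in each panel) of Tnn, Tnc, Tnxb and Fn1 in the 3 control and 3 D-gal libraries, with circle, square and triangle for replicates 1, 2 and 3 and bars for the mean ± SD. Tnn lies between 33.3 and 41.0 in the control group and between 563 and 744 in the D-gal group, Fn1 is at least 110115 in the one and at most 48768 in the other, and the symbols of Tnc and Tnxb stand at similar heights.

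Read together, 2 of the 4 members that passed the filter, Tnn and Fn1, were past both thresholds of the study, an adjusted p under 0.05 together with a change of 1 or more on the log2 scale, as were 4.21% of all genes tested. The same 2 were past the adjusted p alone, as were 34.8% of all genes. In all 4 the groups did not overlap, which held for 49.1% of all genes. Since the members were chosen on these values, nothing is read from the shares.

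Levels can be compared between genes only per length. Dividing CPM by the kilobases of merged exons, the control group ran in the order Fn1 (571 ± 12.3), Tnc (259 ± 5.51), Tnxb (0.954 ± 0.0987), Tnn (0.376 ± 0.0397) and Tnr (0.00798 ± 0.0107), each as the mean and SD of 3 libraries. The ranges of neighbouring genes in this order did not overlap. In the D-gal group Tnc (249 ± 4.19) and Fn1 (237 ± 13.1) were close, at 253, 249 and 244 for Tnc and 248, 223 and 240 for Fn1 in libraries 1, 2 and 3. Their ranges overlapped, although Tnc was the higher within each library. Below them came Tnn (6.80 ± 0.943), Tnxb (1.09 ± 0.0305) and Tnr (0.00341 ± 0.00296), again without overlap. Tnn and Tnxb thus exchanged places. Among the 13366 tested genes with a gene model, Tnn stood at rank 12335 by level in the control group and at rank 6338 in the D-gal group. Fn1 went from rank 43 to rank 125 and Tnc from rank 128 to rank 117.

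**Figure D2:**
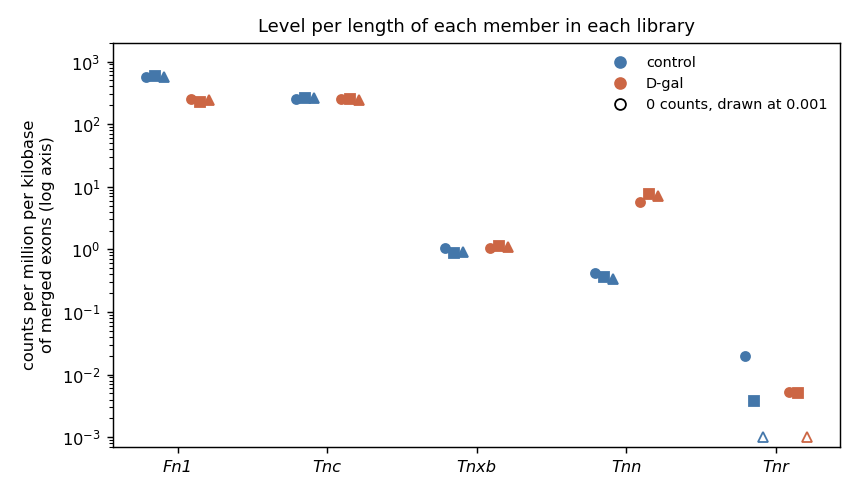
CPM per kilobase of merged exons (log axis) for each member in each library, with control in blue, D-gal in red and open symbols for a count of 0 drawn at 0.001. Fn1 and Tnc lie far above the other genes in the control group, and Tnn moves from under Tnxb to above it.

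The level of Fn1 and its place beside Tnc depend on the length used, and the ranks above were found with merged exons only. The deposited FPKM of Fn1 rest on a length of 18077 bases, against 11685 bases of merged exons, while for Tnc the lengths are close (7929 and 7772 bases). In the deposited FPKM the D-gal libraries held 146 to 162 for Fn1 and 243 to 250 for Tnc, so that there the ranges did not overlap and Tnc was the higher. The direction of each member between the groups does not depend on length.

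The balance of the matrix genes within a library shifted accordingly. The ratio of Fn1 to Tnc per kilobase was 2.20 in each of the 3 control libraries and in the treated cells 0.983, 0.896 and 0.984. Fn1 thus exceeded Tnc in the control cells and lay just under it after D-gal. The size of this ratio depends on the length, since in the deposited FPKM it was 1.45 in each control library and 0.648, 0.591 and 0.649 after D-gal. Tnc exceeded Tnn 608-, 722- and 756-fold in the control libraries, and 43.8-, 32.7- and 34.8-fold in the D-gal libraries. Tnxb exceeded Tnn 2.40- to 2.67-fold in the control libraries and lay at 0.148 to 0.185 of it in the D-gal libraries. The 5 genes together took 0.847 to 0.880% of all counts in the controls against 0.466 to 0.495% in the D-gal libraries. These ratios restate the values that chose the members.

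**Figure D3:**
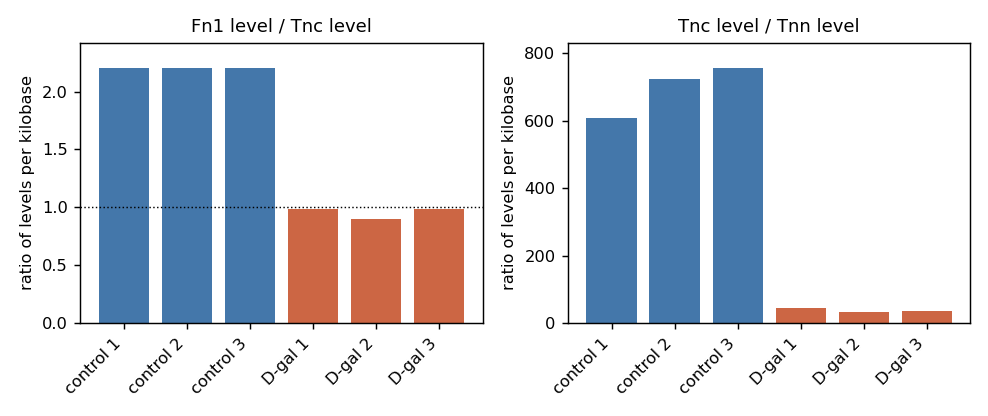
Ratio of the level per kilobase of Fn1 to Tnc (left, dotted line at equal levels) and of Tnc to Tnn (right) in each library, with bars starting at 0 and control in blue, D-gal in red. The left bars stand at 2.20 in each control library and between 0.896 and 0.984 in the D-gal libraries, and the right bars fall from at least 608 to at most 43.8.

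The genes next to the members were compared to see whether the large differences extended along the chromosome. Beside Tnn, 4930523C07Rik, which lies between Tnr and Tnn with its nearer end 4820 bp from Tnn, had a log2 fold change of 0.22 (SE 0.11, adjusted p = 0.17, edgeR). Mrps14, a mitochondrial ribosomal protein gene on its other side, had 0.14 (SE 0.07, adjusted p = 0.17). Atic, an enzyme gene of purine synthesis 5888 bp from Fn1, had 0.02 (SE 0.03, adjusted p = 0.58). Mreg, the next coding gene on the other side of Fn1 at 506241 bp, had -0.61 (SE 0.48, adjusted p = 0.37, edgeR) on 3 to 18 counts per library. None of these neighbours passed the test. Atf6b, beside Tnxb, had 0.09 (SE 0.04, adjusted p = 0.14). On the other side of Tnxb, the complement gene C4b was lower in the D-gal group by a log2 fold change of -2.20 (SE 0.38, adjusted p = 0.0032, edgeR), from 16 to 19 counts per library to 3 counts in each, and its near-identical copy C4a makes that value uncertain. Around Tnc the next genes had 0 counts or were not tested, apart from Pappa, a metalloprotease gene at 1077158 bp (log2 fold change 0.40, SE 0.15, adjusted p = 0.072, edgeR). The nearest tested coding gene before Tnr, the ubiquitin ligase gene Cop1 at 176128 bp, had 0.18 (SE 0.06, adjusted p = 0.049, edgeR).

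RefSeq (GRCm38.p6) start sites were found for 4 members, without Fn1. The 250 bases before the first start of Tnc are shown because Tnc was the most abundant tenascin in both groups, with the match of a motif search on both strands in capitals. They lie at chr4:64047016-64047265 on the minus strand.
Tnc: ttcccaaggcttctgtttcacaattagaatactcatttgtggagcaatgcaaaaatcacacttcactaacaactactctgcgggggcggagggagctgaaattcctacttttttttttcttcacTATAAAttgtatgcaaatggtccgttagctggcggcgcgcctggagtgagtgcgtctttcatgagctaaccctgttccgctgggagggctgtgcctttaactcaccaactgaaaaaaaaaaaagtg
The capitals mark TATAAA, the letters of a TATA box, which begin at -126 from this start and which 13.6% of 32851 RefSeq windows of 300 bases hold. The SMAD element CAGAC was matched in the windows of Tnc, Tnr and Tnxb and in 49.6% of all windows. The cAMP response element TGACGTCA (1.79% of windows) and the CArG box (1.63%) were not matched in the windows of these 3 genes. For the Tnc start shown, the CAGAC match lay on the other strand at 9 from the start, past the printed bases. The window of another Tnc start held CAGAC matches at 39 and -70. Matches of this length are common by their letters alone and are a description.

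The genes listed as cell-surface receptors of tenascins and fibronectin changed in both directions. This list and those below were chosen with earlier results of these data known, so nothing is read from their shares. Of 20 tested receptor genes of 23, 5 rose and 4 fell at an adjusted p under 0.05 (edgeR), or 45% together, where 16.9% of all genes rose and 17.8% fell, 34.8% in all. Their median log2 fold change was -0.07, beside 0.00 for all genes tested. Of the called genes, 2 of the 5 and 1 of the 4 also reached a log2 change of 1. Among all genes tested, 564 of the 4661 with an adjusted p under 0.05 did. Ptprb, a receptor tyrosine phosphatase best known from endothelial cells, rose from 156, 199 and 162 to 441, 438 and 422 normalized counts (log2 fold change 1.33, SE 0.11, adjusted p = 6.9e-05). Ptprz1, the other receptor tyrosine phosphatase of the list, fell from 598 ± 54.2 to 468 ± 37.7 (log2 fold change -0.36, adjusted p = 0.017, edgeR). Itga8, an integrin subunit that binds RGD together with Itgb1, rose from 46.1 ± 8.12 to 110 ± 4.99 normalized counts (SD, n = 3; log2 fold change 1.27, adjusted p = 0.00068 by edgeR). The syndecans, which are heparan sulfate proteoglycans that bind fibronectin, differed: Sdc1 fell from 2555 ± 111 to 1721 ± 112 (log2 fold change -0.57, adjusted p = 0.00018, edgeR) and Sdc2 rose from 2218 ± 56.1 to 2709 ± 71.8 (0.29, adjusted p = 0.00078). Sdc4, the most abundant of the tested syndecans by count, had 5673 ± 156 and 5436 ± 138 normalized counts (SD, n = 3; log2 fold change -0.06, adjusted p = 0.21, edgeR). The largest fall was that of Itgb8, a partner of the integrin subunit alpha-v, from 26.1, 18.8 and 42.4 to 3.37, 5.46 and 3.61 normalized counts (adjusted p = 0.0028, edgeR), and Itgb3, a further partner of that subunit, had a log2 fold change of -0.52. Itga5 and Itgb1, which form the classical fibronectin receptor, had log2 fold changes of -0.07 and 0.03 (adjusted p = 0.22 and 0.60, edgeR).

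Most matrix partners and genes of fibril assembly fell, as Fn1 did. Of 18 tested of 21, 3 rose and 11 fell at an adjusted p under 0.05 (edgeR), 77.8% together beside 34.8% of all genes, with a median log2 fold change of -0.15. Of these, 0 of the 3 and 2 of the 11 also reached a log2 change of 1. Among all genes tested, 564 of the 4661 with an adjusted p under 0.05 did. Lox, which cross-links collagen and elastin, fell from 46029 ± 681 to 24722 ± 1913 normalized counts (SD, n = 3; log2 fold change -0.90, SE 0.05, adjusted p = 1.5e-05, edgeR). Fbln2, a fibulin that binds fibronectin, fell from 30781 ± 442 to 21647 ± 1134 (log2 fold change -0.51, adjusted p = 5.6e-05, edgeR). The tensins, which tie integrins to actin and to fibrillar adhesions, differed, since Tns2 fell (log2 fold change -0.84, adjusted p = 0.00012, edgeR), Tns3 rose (0.41, adjusted p = 4.1e-05) and Tns1 did not pass the test (0.06, adjusted p = 0.41). Dcn, a small proteoglycan of collagen fibrils, and Fbln1, another fibulin, had log2 fold changes of -1.42 and -1.25 and fell. Postn and Col12a1, a matricellular protein and a fibril-associated collagen that bind tenascins or their partners, were among the genes that rose, by log2 fold changes of 0.10 and 0.22. Thbs1, an abundant matricellular protein, had a log2 fold change of 0.02 (adjusted p = 0.65, edgeR).

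Enzymes that cut these proteins mostly fell, while their inhibitors did not all move down. Of 17 tested of 23, 2 rose and 12 fell (adjusted p under 0.05, edgeR), 82.4% together beside 34.8% of all genes, with a median log2 fold change of -0.47. Of these, 0 of the 2 and 1 of the 12 also reached a log2 change of 1. Among all genes tested, 564 of the 4661 with an adjusted p under 0.05 did. Ctsl, a lysosomal cysteine protease, fell from 5640 ± 74.7 to 3799 ± 117 normalized counts (SD, n = 3; log2 fold change -0.57, adjusted p = 1.8e-05, edgeR). Mmp2, a gelatinase, fell from 6267 ± 141 to 4389 ± 99.0 (-0.51, adjusted p = 2.7e-05, edgeR), and Plau, the urokinase that activates plasminogen, from 761 ± 60.1 to 403 ± 26.7 (-0.92, adjusted p = 0.00012, edgeR). Timp1 and Timp2, inhibitors of metalloproteases, had log2 fold changes of -0.85 and -0.26 and fell. Timp3, a further inhibitor, did not pass the test (log2 fold change 0.02, adjusted p = 0.58, edgeR). It had 40956 ± 530 normalized counts in the controls and 41653 ± 1599 in the D-gal libraries. Mmp3, stromelysin, was among the genes that rose, by a log2 fold change of 0.78.

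Genes that induce or regulate tenascins and fibronectin moved in both directions. Of 37 tested of 41, 6 rose and 10 fell (adjusted p under 0.05, edgeR), 43.2% together beside 34.8% of all genes, with a median log2 fold change of -0.08. None of the 16 reached a log2 change of 1, while 564 of the 4661 called among all genes did. Egr1, an immediate-early transcription factor, fell from 5965 ± 98.1 to 3490 ± 110 normalized counts (SD, n = 3; log2 fold change -0.77, adjusted p = 6.2e-06, edgeR). Ets2, a transcription factor of the ETS family, rose from 1228 ± 17.5 to 2421 ± 146 (0.98, adjusted p = 9.9e-06, edgeR). Within the TGF-beta pathway, a strong inducer of fibronectin and tenascin-C, the ligand Tgfb2 rose (log2 fold change 0.60, adjusted p = 6.3e-05), while the ligands Tgfb1 (-0.54) and Tgfb3 (-0.29) and the receptor Tgfbr1 (-0.54, adjusted p = 8.3e-05, edgeR) fell. Fgf2, a fibroblast growth factor, had 62.7, 547 and 510 normalized counts in the controls against 1006, 1074 and 1074 in the D-gal libraries. It did not pass the test (log2 fold change 1.497, SE 0.56, adjusted p = 0.072, edgeR), and control 1 stood far below the other libraries.

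The other genes with a fibrinogen-like domain were mostly too low to test, with 6 of 18 passing the filter. Angptl4, a secreted inhibitor of lipoprotein lipase, fell from 1392 ± 41.6 to 1065 ± 40.1 normalized counts (SD, n = 3; log2 fold change -0.39, adjusted p = 0.00059, edgeR). Angpt2 (0.81, adjusted p = 0.045) and Angpt4 (-0.89, adjusted p = 0.048), ligands of the endothelial receptor Tek, stood just past the threshold, and both calls were lost with DESeq2. With Angptl2 (-0.19, adjusted p = 0.082, edgeR) not passing, 1 rose and 2 fell, 50% of the 6 tested beside 34.8% of all genes, with a median log2 fold change of -0.29. None of the called genes reached a log2 change of 1, while 564 of the 4661 called among all genes did.

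**Figure D4:**
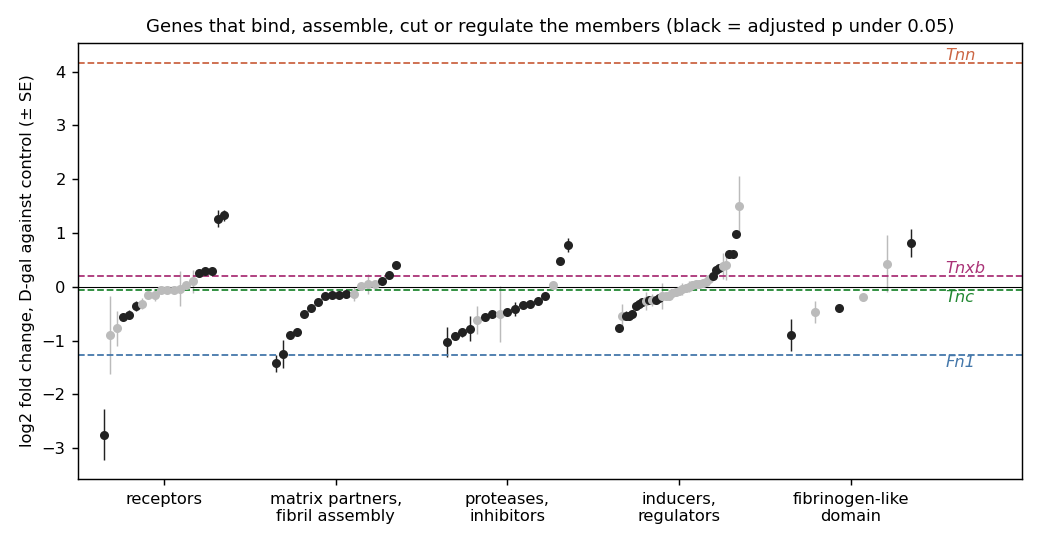
Log2 fold change of D-gal against control (y axis, bars ± SE) for each tested gene of the 5 lists, ordered within each list, with black for an adjusted p under 0.05 and gray otherwise. Dashed lines mark the values of Tnn (4.17), Tnxb (0.19), Tnc (-0.06) and Fn1 (-1.27), and the matrix and protease lists lie mostly under 0.

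The genes most like each member over the 6 libraries were found by Pearson's r of log2 normalized counts among 10408 genes with a mean of at least 100 counts. For Fn1 these were Kif11 and Aspm, both genes of the mitotic spindle, and Slc44a1, a choline transporter gene, each with r = 0.9998. For Tnn they were Igfbp7, a secreted binder of insulin-like growth factors (r = 0.9994), Adamts9, a secreted metalloprotease (0.9993), and Rftn2, a lipid raft protein gene (0.9993). The points share the step between the groups, so values near the maximum are common, and 893 genes for Tnn and 1097 for Fn1 exceeded 0.95. Among the 3 genes most like Tnc was Ncoa2 (0.9906), and among those most like Tnxb was Mrps12 (0.9974), with 34 and 32 genes over 0.95.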

How the data were processed

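The authors deposited raw counts of reads per gene in each library, not normalized, beside FPKM values that they derived from the counts, a gene length and the library total. Per the labels and methods, reads were checked, trimmed and aligned with HISAT2 (version 2.0.4 in the submitters' processing notes); the counting tool, its strand setting and the annotation are not given in the sources used here. The labels name an RNA-seq library kit, the methods a small RNA kit. Gene models were taken from GENCODE M21 (GRCm38), which holds 34344 of the 34745 gene identifiers. Of the genes, 14371 had a count of 0 in every library.

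The members and gene lists were chosen with earlier results of these data known. Counts were tested over 13407 genes with edgeR 4.0.16 (R 4.3.3) (TMM factors, filterByExpr, quasi-likelihood test, Benjamini-Hochberg adjusted p), 3 libraries against 3. TMM factors lay between 0.9855 and 1.015, the log2 fold changes had a median of 0.00, and the biological coefficient of variation was 9.47%. The SE was taken as the ratio of the log2 fold change to the root of F. The script was tested on simulated data. No pair of replicates agreed within sampling noise (chi-square of at least 5.998 for each degree of freedom). The alternatives were DESeq2 1.42.0, RLE size factors, no filter, a minimum of 10 counts per library, the replicate block, each library left out, limma 3.58.1 on log2(FPKM + 1), and the adjusted p alone. Named were the members, the 4 genes of each list with the smallest p, neighbouring genes and the 3 genes most like each member, and list genes named beyond these were chosen after their values were seen. Some items that this rule names are not reported here.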

Additional observations from a re-analysis of the deposited data

How the results depend on the processing

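Tnn, Tnc, Tnxb and Fn1 kept their direction under each of the 12 alternatives tried, while Tnr was not fitted. On the log2(FPKM + 1) scale of limma, which understates the change of low genes, the difference was 2.49 for Tnn, and 119 genes in all passed both thresholds instead of 564. There it was -0.026 for Tnc, and the cause was not tested. With the adjusted p alone 4661 genes passed. In the deposited FPKM the level was 251 for Tnc and 365 for Fn1 in the control group and 155 for Fn1 in the D-gal group. Of the fibrinogen-like domain genes 1 passed with DESeq2 and 1 with the replicate block, instead of 3, and leaving out each library in turn gave 1 to 2, with 1 when any library but control 3 was left out; Angpt2 and Angpt4 lost the call in 7 and 8 alternatives. Replicate numbers did not pair the libraries, since same-numbered ones correlated at -0.0133, -0.004 and 0.0277 in their deviations from the group means, and not every library correlated best with its own number. With the replicate block 530 genes passed, the log2 fold change was 4.16 for Tnn and -1.27 for Fn1, and of the 20 list genes named by rule only Angpt2 and Angpt4 lost the call. Leaving out each library moved Tnn between 4.08 and 4.28 and Fn1 between -1.30 and -1.22. With 3 libraries a group, low genes such as Tnr cannot be compared at this depth, and Tnxb only for changes well above its spread.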

Other observations

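Itgav, the integrin subunit alpha-v that pairs with Itgb3 and Itgb8 and binds the RGD of fibronectin, stood apart in single libraries of both groups. It had 2169, 2186 and 4319 normalized counts in the controls, against 2154, 4087 and 2191 in the D-gal libraries. Control 3 and D-gal 2 were thus the high ones, and the remaining libraries lay close together. Its log2 fold change was -0.04 with an SE of 0.33 (adjusted p = 0.94, edgeR). No cause was tested.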
